A study of Mus musculus with 9 samples.

Results

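Exonic circular RNAs (circRNAs) whose genomic span, from the first to the last back-spliced base, is under 1000 bp were described here across C2C12 myoblast differentiation. They were chosen by 2 deposited properties, the type exon and the span, and no measured level entered the choice. They numbered 1807 of the 37751 circRNAs in the table, or 4.79%, and 5.47% of its 33054 exonic circRNAs, and they are called short circles below. The other 31247 exonic circRNAs are called longer circles.

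C2C12 is a mouse myoblast line that came from skeletal muscle. Group day 0 held proliferating cells in DMEM with fetal bovine serum, sampled before confluence. Groups day 3 and day 6 held cells sampled 3 and 6 days after the confluent culture was moved to DMEM with horse serum, in which myoblasts become myocytes and fuse into myotubes. Each group had 3 libraries, no genotype or drug differs between them, and nothing in the labels tells whether replicates were grown apart. The p-values therefore describe the spread among these 9 libraries, which may be technical.

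A circRNA forms when the splice donor at the end of an exon joins the acceptor at the start of the same or an upstream exon, and it is counted by reads across that back-splice junction. Exons that circularise alone tend to be longer than other exons, and long flanking introns, which can pair through repeats, favour back-splicing. The loop has no free ends and resists exonucleases, so it can outlast its linear mRNA. In muscle, circles of several genes are known to change as myoblasts leave the cell cycle and fuse.

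The junctions of the 5 most abundant short circles that passed a test in this study are shown because a back-splice junction is the only sequence that separates a circle from its linear mRNA. The bases come from the GENCODE M21 transcripts of GRCm38 and are written 5′ to 3′ on the transcript. The last 40 bases of the circle are in lower case, and the first 40 bases, which follow them only in the circle, are in capitals. The loci are chr8:84771784-84772315 on the minus strand for Nfix, chr6:119920110-119921028 on the plus strand for Rad52, chr14:47016277-47016795 on the plus strand for Samd4, chr15:88811297-88812159 on the minus strand for Alg12 and chr15:62107148-62107465 on the plus strand for Pvt1.
Nfix exon 2: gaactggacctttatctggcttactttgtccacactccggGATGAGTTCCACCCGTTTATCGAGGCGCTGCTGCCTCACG
Rad52 exons 10 to 11: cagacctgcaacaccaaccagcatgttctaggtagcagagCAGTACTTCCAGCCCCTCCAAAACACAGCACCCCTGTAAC
Samd4 exon 3: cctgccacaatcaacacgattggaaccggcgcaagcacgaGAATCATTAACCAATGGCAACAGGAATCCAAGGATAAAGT
Alg12 exons 6 to 7: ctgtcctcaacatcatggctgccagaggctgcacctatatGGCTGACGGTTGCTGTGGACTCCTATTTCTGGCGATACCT
Pvt1 exon 2: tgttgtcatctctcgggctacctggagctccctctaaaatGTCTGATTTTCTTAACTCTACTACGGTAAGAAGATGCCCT

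The libraries held 208787 to 443955 back-splice reads each, and 334 to 557 short circles were listed (at least 2 reads, the smallest count above 0 in the table) per library. Replicates of a day differed by more than counting noise, with a chi-square per degree of freedom of 11.5 to 17.7 over short circles, and no 2 libraries were identical. Linear reads are not part of the table, and the cell type could not be checked against the mRNA of muscle markers. In such bulk samples fewer cells of a type and less RNA per cell cannot be told apart.

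Short circles held 212019 of 2679099 back-splice reads, or 7.91%. They came from 1413 host genes, of which 1168 had 1 short circle and 245 had more, and 1072 of these hosts (75.9%) also produced a longer circle. Spans ran from 136 to 999 bp with a median of 612 bp, and 175 short circles spanned under 300 bp. Hosts were protein coding for 1757 short circles (97.2%) and lincRNA genes for 29.

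A few single exons carried most of these reads. Circles whose ends were both ends of 1 annotated exon made up 386 of the short circles (21.4%) and 62.1% of their reads. Circles of several exons made up 985 (54.5%) and 34.5% of reads. Among longer circles, by comparison, single exons were 100 of 31247 (0.32%) with 1.38% of reads, a contrast that the span limit itself sets in part because most exons are short. Another 126 short circles (6.97%) had 1 end at an annotated exon edge and 303 (16.8%) had neither, with 1.8% and 1.51% of reads.

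**Figure D1:**
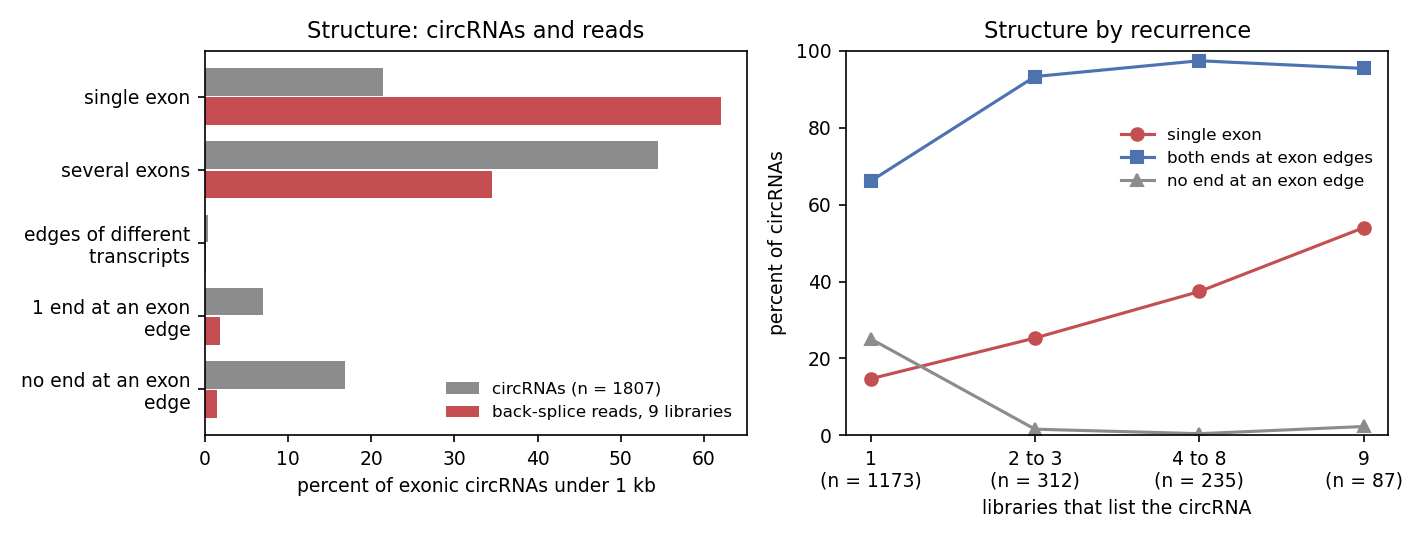
Left, percent of the 1807 short circles (grey) and of their reads in 9 libraries (red) by the match of their ends to annotated exons; right, percent of short circles of each structure (lines) against the number of libraries that list them. Single exons rise from 14.7% of the circles listed in 1 library to 54.0% of those listed in all 9, and circles with no end at an exon edge go from 25.1% to 2.3%.

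Most short circles were rare. One library only listed 1173 of them (64.9%), with 5.23% of the reads, while 87 (4.81%) were listed in all 9 libraries and held 78.8% of the reads. Single exons were 14.7% of those in 1 library, 25.3% of those in 2 to 3, 37.4% of those in 4 to 8 and 54.0% of those in 9. Of the 303 with no end at an exon edge, 295 (97.4%) were listed in 1 library.

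Single-exon circles were, at the median, longer than the internal exons of their hosts and lay between longer introns. The internal exons were those of 1 transcript per host, and the circularised exons were not taken out of them. The 386 exons had a median length of 468 bp (quartiles 290 and 665), against 193 bp (161 and 269) for 2721 internal exons of the same hosts within the same length range. Their median upstream and downstream introns were 9010 and 8420 bp, against 1660 and 1480 bp for the internal exons of the hosts. The exon was exon 2 of its transcript in 42.0% of the circles and in 8.71% of the internal exons of the hosts. These medians differed with recurrence: in the 47 single-exon circles listed in all 9 libraries the exon was 552 bp, the introns were 20100 and 20000 bp, and 63.8% were exon 2. In the 172 listed in 1 library they were 368 bp, 4370 and 4250 bp, and 33.1%. The most abundant, Nfix exon 2, differed from these medians in its upstream intron of 1038 bp, and its downstream intron was 43816 bp. Because levels chose none of the exons but recurrence depends on level, these are descriptions with no test.

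**Figure D2:**
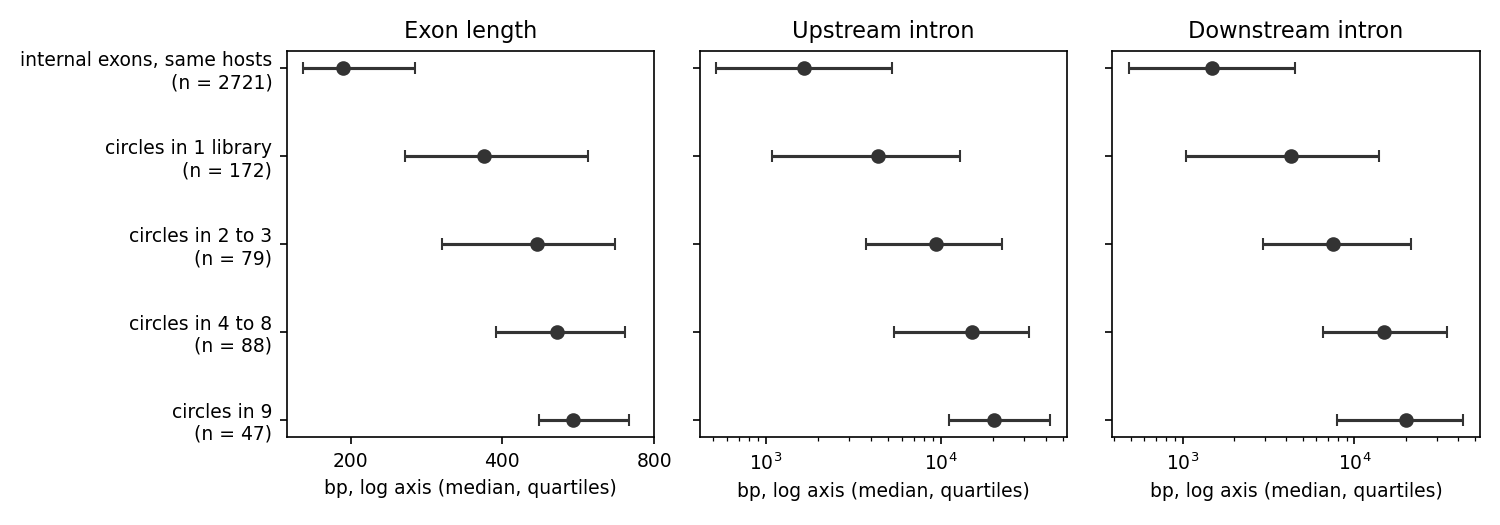
Median (points) and quartiles (bars) of exon length and flanking intron length in bp on log axes, for internal exons of the hosts and for single-exon circles by the number of libraries listing them. Exon length moves from 368 to 552 bp and the upstream intron from 4370 to 20100 bp between circles in 1 library and circles in 9.

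Circles of several exons had lower medians than the single-exon circles. Their annotated exons summed to a median of 334 bp, with introns of 1570 and 1250 bp on either side, and 13.5% began at exon 2. Longer circles of several exons had 600 bp of exon, introns of 5090 and 3570 bp, and 25% began at exon 2. The span limit itself sets part of this contrast, because the exons and the introns between them must fit in under 1000 bp. How far the limit also selects short flanking introns was not tested. Among the 1371 short circles with both ends at the edges of exons of 1 transcript, 649 held 2 exons, 263 held 3, 65 held 4 and 8 held 5. The inside of a circle was not read by these counts, so the exon content is the annotated one.

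Most circles lay in coding sequence. Of the 1371, 1146 (83.6%) held coding exons only, 164 (12%) joined 5′ UTR and coding sequence, 34 came from noncoding transcripts, 18 reached into a 3′ UTR and 9 were UTR only. Their annotated length was a multiple of 3 in 510 (37.2%). A circBase identifier was deposited for 93 short circles (5.15%) and for 892 longer circles (2.85%). The median GC content was 53.1% in short and 49.4% in longer circles.

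Few circles that missed an annotated exon edge recurred. Palm2, listed in all 9 libraries with 1766 reads, and Rbm4, an RNA-binding protein gene, with 281 reads in 9, each matched 1 edge. Bptf, the large subunit gene of a nucleosome remodeler, had a circle of 398 reads in 9 libraries with no matched edge. Zfa-ps, annotated as a pseudogene of a zinc finger gene, had 315 reads in 9, and reads of its near-identical relatives could be assigned there.

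Within each library the short circles were compared with the longer ones. A listed short circle held 53.7 ± 12.1 reads on average and a longer one 32.1 ± 5.06 (mean ± SD, n = 9 libraries). The log2 ratio was 0.73 on average and between 0.508 and 1.01 in the libraries, higher in 9 of 9 (exact two-sided sign-flip permutation test, p = 0.00391, the smallest that 9 libraries allow). This mean rested on 1 circle: without Nfix exon 2 the log2 ratio was 0.179 (exact permutation p = 0.00781), and at a span limit of 500 bp it turned to -0.599. The medians within a library averaged 12.8 and 13.2 reads over the 9 libraries. The libraries hold many of the same circles, so equal signs in 9 of 9 are not 9 independent results.

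Within libraries, listed short circles matched exon edges less often and were more often seen in no other library. Both ends lay at exon edges in 87.1 ± 2.07% of the listed short circles and in 93.7 ± 0.675% of the longer ones, lower in 9 of 9 libraries (difference -6.65 percentage points, exact permutation p = 0.00391). The share that no other library listed was 29.2 ± 3.11% against 25 ± 2.73%, higher in 9 of 9 (difference 4.2 percentage points, exact permutation p = 0.00391). The 9 libraries hold many of the same circles, so these are not 9 independent sets of circles. Over the whole table, 4.81% of short and 4.33% of longer circles were listed in all 9 libraries. More than 1 library listed 35.1% of short and 41.2% of longer circles. Among single-exon circles these shares were 55.4% of the short and 59.0% of the longer.

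As a class the short circles took up overlapping shares of the reads on the 3 days. Their share of reads was 7.52 ± 0.872% at day 0, 8.64 ± 1.18% at day 3 and 7.61 ± 1.02% at day 6 (n = 3 each). The lowest library was day 0 replicate 1 with 6.63% (95% Wilson interval 6.547 to 6.72%) and the highest day 3 replicate 1 with 9.70% (9.599 to 9.803%). The groups overlapped in all 3 comparisons (exact permutation p = 0.3 for day 3 and 0.9 for day 6 against day 0 and 0.2 for day 6 against day 3, where the smallest possible with 3 against 3 is 0.1). Without the Nfix exon 2 circle the shares were 5.51 ± 0.617%, 5.69 ± 0.569% and 4.97 ± 0.467%, and day 3 minus day 0 went from 1.12 to 0.183 percentage points (exact permutation p = 0.7). The Wilson intervals cover counting error only, since PCR reads without molecular identifiers are not independent molecules.

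Neither the number of short circles nor the weight of single exons separated the days. Short circles were 4.83 ± 0.229%, 4.77 ± 0.352% and 4.52 ± 0.0644% of the circRNAs listed at days 0, 3 and 6. Single exons held 59.2 ± 2.21%, 63.2 ± 6.25% and 62.8 ± 5.71% of the short-circle reads, and without the Nfix circle 44.3 ± 2.51%, 44.5 ± 6.6% and 43.4 ± 6.27%. The exact permutation p-values were 0.2 or above in all 6 of these comparisons.

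Reads were concentrated on few circles. The 4 most abundant held 44.5% and the 12 most abundant 56.1% of the short-circle reads. Nfix exon 2 alone held 31.9% of them and 2.53% of all back-splice reads, and it ranked 1 among all 37751 circRNAs. Levels below are in CPM, counts of junction reads on the scale of the TMM-adjusted library totals.

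Between days, 361 of the 1807 short circles (20.0%, with 91.7% of the reads) had enough reads to be tested, and 1446 did not. At day 3, 6 of 361 (1.66%) passed against day 0, 5 higher and 1 lower, beside 1.58% of all 8153 circRNAs tested (1.31% higher and 0.27% lower). At day 6, 7 of 361 (1.94%) passed, 5 higher and 2 lower, beside 1.99% of all tested (1.47% higher and 0.515% lower). Both shares lay near those of all tested circRNAs, so the counts are no result particular to short circles. Of day 6 against day 3, 0 passed with edgeR, 24 (6.65%) had an unadjusted p under 0.05 beside 354 of all 8153 (4.34%), and DESeq2 called 1, beside 0.0613% of all tested with edgeR and 0.245% with DESeq2.

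The counts depended on the test. The test was edgeR's quasi-likelihood test with Benjamini-Hochberg adjustment over all 8153 circRNAs, and DESeq2 called 10 short circles at day 3 (6 higher, 4 lower, beside 3.34% of all tested) and 21 at day 6 (8 higher, 13 lower, beside 5.72%). A fit of only the 2 groups compared called 1 and 2. The median log2 fold change of the 361 was 0.141 at day 3 and -0.303 at day 6, and 0.123 and 0.0149 over all tested. Circles that had no reads in a group were also set at a floor of 3 reads per library. The medians of the 361 were then 0.109 and -0.143, beside 0.0776 and 0.0 over the 7682 exonic circRNAs tested. With DESeq2, which differs in scaling and in fit, the median of all tested was -0.0119 at day 3 and -0.0305 at day 6. That of the 361 was 0.00203 and -0.3. Both comparisons share the day 0 libraries, so their calls are not independent of each other.

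**Figure D3:**
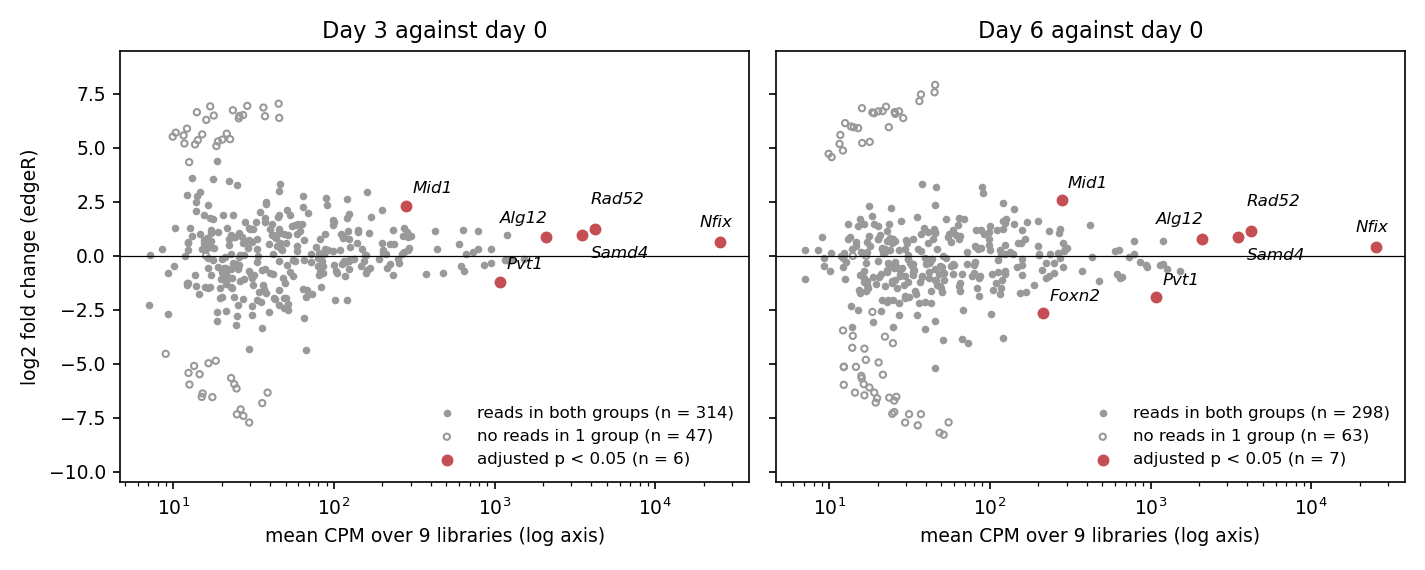
Log2 fold change (edgeR) against mean CPM over 9 libraries on a log axis for the 361 short circles tested, at day 3 (left) and day 6 (right) against day 0; red points passed and are named, and open circles (47 at day 3 and 63 at day 6) had no reads in 1 group, so their fitted value depends on the prior count. The 6 and 7 circles that passed lie among the more abundant ones, from Foxn2 and Mid1 at 214 and 280 CPM up to Nfix at 25349 CPM.

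The circles that rose came from Rad52, Nfix, Samd4, Alg12 and Mid1, at both days, and those that fell from Pvt1 at both days and Foxn2 at day 6. Rad52 and Alg12 gave circles of 2 exons and the other 5 were single exons. Each single circle compared over 3 against 3 libraries reached an exact permutation p of 0.1, the smallest possible, except Mid1 at day 3 with 0.2 and Foxn2 at day 3 with 0.3.

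Rad52 encodes a protein that anneals DNA strands in homologous recombination. Its circle of exons 10 to 11 of 12, with a span of 919 bp and 303 bp of exon, stood at 2039, 2206 and 2591 CPM in the day 0 libraries, 5326, 5784 and 4930 at day 3, and 4564, 5128 and 5310 at day 6. All 6 differentiated libraries lay above all 3 of day 0. The log2 fold change was 1.23 ± 0.14 (SE; edgeR adjusted p = 7.7e-09) at day 3 and 1.13 ± 0.14 (edgeR adjusted p = 5.7e-08) at day 6, or 2.35-fold and 2.19-fold, and it passed in every edgeR and DESeq2 setting tried. The circle held 94.9% of the reads of all Rad52 circRNAs.

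A rarer Rad52 circle shares the start and ends 9 bp earlier, inside the exon, with 116 reads in 7 libraries. The end of the longer circle is printed to show the difference, with the 9 bases that the rarer circle lacks in capitals. They begin with GT, the letters of a splice donor, and whether a donor is used there was not tested.
Rad52 exon 11 end: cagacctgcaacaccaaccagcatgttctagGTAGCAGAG

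Nfix encodes a transcription factor of the nuclear factor I family that acts in fetal myogenesis. Its exon 2 circle of 532 bp stood at 17530, 20287 and 20534 CPM at day 0, 35131, 23180 and 33156 at day 3, and 22424, 32857 and 23041 at day 6. Every differentiated library lay above day 0, but the lowest by a small margin, and days 3 and 6 overlapped. The log2 fold change was 0.65 ± 0.09 (edgeR adjusted p = 2.6e-06) at day 3 and 0.42 ± 0.09 (edgeR adjusted p = 0.0031) at day 6. Neither passed with DESeq2 (adjusted p = 0.0997 and 0.247) or in an edgeR fit of only the 2 groups compared (adjusted p = 0.144 and 0.221), and day 6 did not pass with a minimum count of 10 (edgeR adjusted p = 0.182). The SD of log2 levels between libraries of a day was 0.27. That is a spread of single libraries, while the SE of 0.09 is for a difference of group means. The other Nfix circRNAs summed to 2470 ± 54.1, 3550 ± 221 and 2860 ± 264 CPM.

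Samd4 encodes an RNA-binding repressor of translation, Smaug. Its exon 3 circle of 519 bp stood at 2071, 2749 and 1823 CPM at day 0, 4985, 2850 and 4989 at day 3, and 3373, 5144 and 3693 at day 6. The day 3 replicate 2 library lay close to the highest day 0 library, and the groups did not overlap. The log2 fold change was 0.95 ± 0.18 (edgeR adjusted p = 3.7e-04) and 0.88 ± 0.18 (edgeR adjusted p = 9.0e-04). It did not pass with DESeq2 (adjusted p = 0.144 and 0.0883) or in an edgeR fit of 2 groups (adjusted p = 0.194 and 0.117).

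The rest of the Samd4 locus was lower in sum at days 3 and 6. The other 48 Samd4 circRNAs summed to 2020 ± 62.4 CPM at day 0, 1020 ± 158 at day 3 and 742 ± 189 at day 6. The exon 3 circle accordingly held 51.9% of the reads of the host's circRNAs at day 0 (48.3 to 57.5% in its libraries), 80.2% at day 3 (76.3 to 83.6%) and 84.0% at day 6 (78.8 to 90.6%). Among the 14 others that were tested 1 passed, a circRNA of the deposited type intron that was lower at day 6. Of the 48, 10 were exonic. The most abundant of the 14, exonic with exons 5 to 8, stood at 144 ± 14.1, 212 ± 28.1 and 202 ± 25.45 CPM at days 0, 3 and 6. The next most abundant were of type intron, at 348, 300 and 315 CPM at day 0 and 81.4, 70.3 and 12.1 at day 6.

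**Figure D4:**
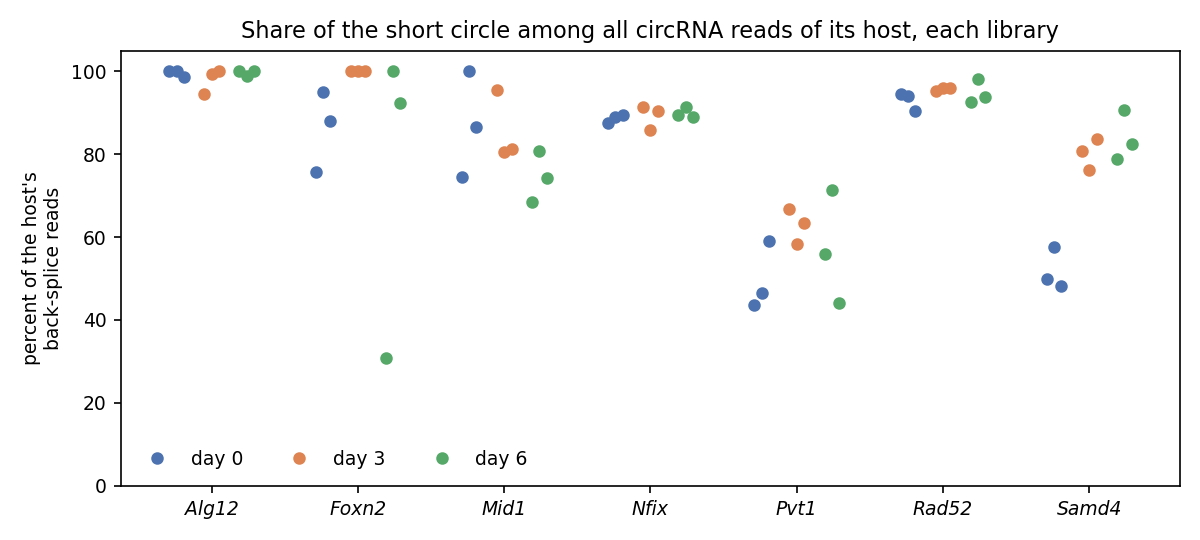
Percent of all circRNA reads of the host that lie in its short circle, 1 point per library, for the 7 hosts whose short circle passed a test. The Samd4 circle goes from 48.3 to 57.5% at day 0 to 76.3 to 90.6% at days 3 and 6, and the Rad52, Nfix and Alg12 circles stay at 85.9% or above in every library.

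Alg12 encodes a mannosyltransferase that builds the lipid-linked oligosaccharide for N-glycosylation in the endoplasmic reticulum. Its circle of exons 6 to 7, with a span of 863 bp and 328 bp of exon, stood at 1434, 1481 and 1226 CPM at day 0, 2973, 2212 and 2301 at day 3, and 2192, 2276 and 2642 at day 6, with no overlap with day 0. The log2 fold change was 0.85 ± 0.20 (edgeR adjusted p = 0.0069) and 0.78 ± 0.20 (edgeR adjusted p = 0.014). The call ended in an edgeR fit of 2 groups (adjusted p = 0.125 and 0.0917), without day 3 replicate 1 at day 3 (0.146) and without day 6 replicate 3 at day 6 (0.0942).

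Mid1 encodes a ubiquitin ligase bound to microtubules. Its exon 2 circle (chrX:169926954-169927669, plus strand) joins 5′ UTR and coding sequence over 716 bp, and stood at 119, 38.6 and 51.7 CPM at day 0, 482, 87.6 and 487 at day 3, and 292, 568 and 398 at day 6. Day 3 replicate 2 lay inside the day 0 range, and day 6 lay above it. The log2 fold change was 2.32 ± 0.60 (edgeR adjusted p = 0.023) and 2.57 ± 0.61 (edgeR adjusted p = 0.0065). The day 3 call ended when day 0 replicate 2 (edgeR adjusted p = 0.0882) or 3 (0.0601) was left out, without day 3 replicate 1 or 3 (0.236 each), with no filter (0.105), with a minimum count of 10 (0.0582) and in a 2-group fit (0.265). The day 6 call ended without day 6 replicate 2 (edgeR adjusted p = 0.071) and in a 2-group fit (0.0747), and without day 0 replicate 1 the log2 fold changes were 2.94 and 3.19.

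Pvt1 encodes a long noncoding RNA next to Myc, and its exon 2 circle of 318 bp was the second shortest of those listed in all 9 libraries. It stood at 1309, 1897 and 2520 CPM at day 0, 1114, 754 and 613 at day 3, and 314, 775 and 424 at day 6. Every differentiated library lay below day 0, and days 3 and 6 overlapped. It fell by 1.21 ± 0.30 on the log2 scale at day 3 (edgeR adjusted p = 0.014) and by 1.92 ± 0.30 at day 6 (edgeR adjusted p = 1.0e-05). The day 3 call ended without day 0 replicate 3 (edgeR adjusted p = 0.172) or day 3 replicate 3 (0.0778), with a minimum count of 10 (0.0568) and in a 2-group fit (0.144). The other Pvt1 circRNAs summed to 1870 ± 267, 483 ± 112 and 365 ± 151 CPM, lower in sum at both later days, and 0 of the 11 others tested passed at day 3 or 6.

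Foxn2 encodes a forkhead transcription factor. Its exon 2 circle (chr17:88462713-88463263, plus strand) joins 5′ UTR and coding sequence over 551 bp and stood at 175, 440 and 438 CPM at day 0, 289, 119 and 305 at day 3, and 18, 56.8 and 87.6 at day 6. Day 6 lay below both other days, and day 3 overlapped day 0. It fell by 2.66 ± 0.67 on the log2 scale at day 6 (edgeR adjusted p = 0.016), and the day 3 difference of -0.56 did not pass (edgeR adjusted p = 1.0). The call ended when day 0 replicate 2 (edgeR adjusted p = 0.0942) or 3 (0.114) was left out, without day 6 replicate 1 or 2 (0.147 and 0.0535), with no filter (0.153) and in a 2-group fit (0.127).

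**Figure D5:**
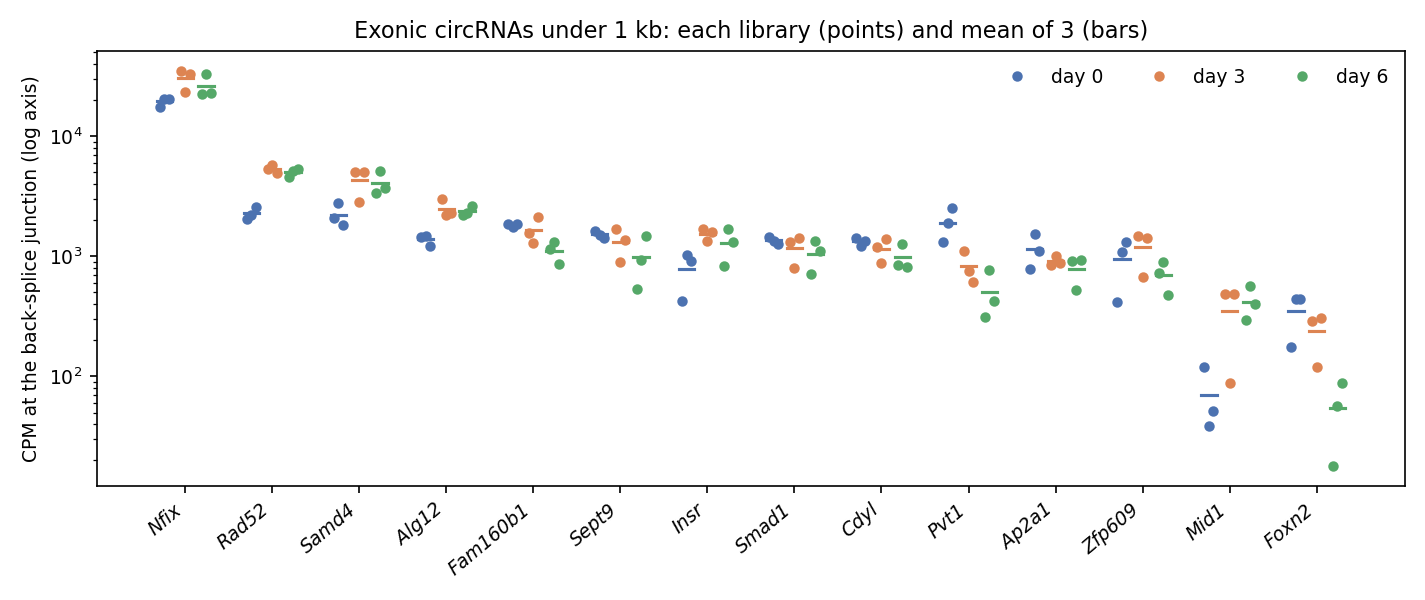
CPM on a log axis in each library (points, coloured by day) and the mean of 3 (bars) for the 12 most abundant short circles, plus Mid1 and Foxn2. All Rad52 libraries of days 3 and 6 (4564 to 5784 CPM) lie above those of day 0 (2039 to 2591 CPM).

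The other 7 of the 12 most abundant circles did not pass at either day. Insr, the insulin receptor gene, gave an exon 2 circle at 422, 1022 and 915 CPM at day 0, 1682, 1339 and 1580 at day 3, and 826.5, 1700 and 1323 at day 6. Days 0 and 3 did not overlap, and the log2 fold change of 0.96 ± 0.28 had an edgeR adjusted p of 0.0601. Fam160b1 exons 6 to 7 stood at 1871, 1747 and 1839 CPM at day 0, 1576, 1283 and 2105 at day 3, and 1145, 1310 and 866 at day 6, where the difference of -0.72 ± 0.23 had an edgeR adjusted p of 0.106.

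The remaining 5 lay within a narrow range of mean levels. Sept9 exon 3, of a cytoskeletal septin, had 1269 CPM over the 9 libraries, Smad1 exon 2, of a BMP signal transducer, 1193, Cdyl exon 2, of a chromodomain corepressor, 1153, and Ap2a1 exons 2 to 4, of a clathrin adaptor subunit, 948. Zfp609 exon 2, known for a circle studied in myoblasts, stood at 412, 1087 and 1326 CPM at day 0, 1473, 666 and 1428 at day 3, and 723, 897 and 478 at day 6, so all 3 days overlapped. The log2 fold changes of these 5 were between -0.34 and 0.34 at day 3 and between -0.63 and -0.38 at day 6.

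Circles just inside and just outside the span limit are given as a description. Among short circles listed in all 9 libraries the shortest were Gse1 exon 2 (219 bp), Pvt1 exon 2 (318 bp) and Gatad2b exon 2 (339 bp), with 542, 2755 and 233 reads. Inside the limit, near it, lay Vps16 (960 bp, 302 reads) and Gpat4 exon 2 (977 bp, 234 reads). Just outside lay Atxn2 (1000 bp, 1240 reads), Utp20 (1004 bp, 1583 reads) and Zbtb38 (1022 bp, 644 reads).

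The limit also cuts through well known single-exon circles. Hipk3 exon 2, a much studied circle, spans 1099 bp and so lay outside, with 10339 reads and 3225 to 5042 CPM in the 9 libraries. Hipk2 (1084 bp, 525 reads), Foxo3 (1436 bp, 411 reads), Hipk1 (1078 bp, 20 reads) and Crebrf (1090 bp, 15 reads) lay outside too. Inside lay Cdyl (667 bp, 3049 reads), Zfp609 (874 bp, 2467 reads), Fbxw7 (579 bp, 2106 reads), Lpar1 (748 bp, 80 reads) and Fut8 (434 bp, 57 reads).

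Hosts with many short circles had few reads on them. Ttn, the sarcomeric spring protein, had 12 short circles with 106 reads, 8 of them with no matched exon edge and 1 in more than 1 library. Gm26917 had 10, all with no matched edge and 92 reads, and Flna, an actin crosslinker, had 10 with 74 reads. Hspg2, Myh9 and Lrp1 followed with 9 each, and 572, 86 and 71 reads.

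By function, the gene lists showed few tested members and 1 that passed. Of 19 short circles of myogenic regulators and fusion genes 7 were tested, and Nfix passed at both days. Others tested were Mbnl2, a splicing regulator, at 219 ± 130, 403 ± 48.5 and 251 ± 62.1 CPM, and Igf1r, a growth factor receptor, at 127 ± 132, 293 ± 134 and 279 ± 137 CPM. The median log2 fold change of the 7 was 0.88 at day 3 and 0.338 at day 6.

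Circles of sarcomere and calcium handling genes were low and mostly untested. The list had 27 short circles of 12 hosts, of which 2 were tested and 0 passed. Summed over the 27, the level was 0 to 84.3 CPM in the day 0 libraries, 172 to 355 at day 3 and 315 to 487 at day 6. Jph2, which ties the sarcoplasmic reticulum to T-tubules, gave 84.3, 0 and 0 CPM at day 0, 151, 133 and 249 at day 3 and 144, 219 and 111 at day 6. All day 3 and day 6 libraries of Jph2 lay above day 0, and the edgeR adjusted p was 0.422 and 0.354.

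Circles of cell cycle and mitosis genes were lower in sum at days 3 and 6. The 20 short circles of 12 hosts summed to 266 to 904 CPM in the day 0 libraries, 126 to 225 at day 3 and 0 to 73.4 at day 6. Of the 3 tested 0 passed. Racgap1, a cytokinesis regulator, stood at 96.8, 77.1 and 91.55 CPM at day 0, 19.3, 70.1 and 144 at day 3, and had no reads in the 3 libraries of day 6 (edgeR adjusted p = 0.0851). Bub1b, a spindle checkpoint kinase, stood at 78.1, 127 and 251 CPM at day 0 and at 0, 0 and 28.4 at day 6 (edgeR adjusted p = 0.354).

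Chromatin modifiers had the most members of any list, and theirs was also the longest list (60 genes). Of their 38 short circles 17 were tested and 0 passed, with a median log2 fold change of 0.983 at day 3 (0.901 with the floor of 3 reads) and 0.222 at day 6. Kat6b exon 2, of a histone acetyltransferase, stood at 368, 544 and 557 CPM at day 0, 1258, 656 and 1302 at day 3, and 741, 1095 and 547 at day 6. Its log2 fold change at day 3 was 1.13 ± 0.32 (edgeR adjusted p = 0.059), and days 0 and 3 did not overlap. Bptf had log2 fold changes of -0.26 at day 3 and -1.73 at day 6 (edgeR adjusted p = 1.0 and 0.354), with all day 6 libraries below day 0. Kdm2a, of a histone demethylase, had 0.34 and -0.06, and Kmt2a, of a histone methyltransferase, 1.28 and 1.23, and neither passed.

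The remaining lists gave 0 circles that passed. The lists were partial: Rad52, Samd4 and Mid1, whose circles passed, were on none of them, so these zeros cover the listed genes only. RNA-binding and splicing genes had 22 short circles with 6 tested, the ubiquitin system 25 with 3, extracellular matrix and adhesion 35 with 4, DNA replication and repair 5 with 2, and reserve cell markers 3 with 2. Adipocyte or osteoblast markers, the other fates C2C12 cells can take, had 0 short circles.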

How the data were processed

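Back-splice reads were counted in 9 libraries of C2C12 cells. The authors deposited 1 table of raw counts per circRNA and library, with locus, type and host. BWA and the build GRCm38.p4 (mm10) were used, per the submitters' processing notes, and which circRNA caller, versions and filters were used was not given in the sources used here. Per the labels, RNA was enriched for circRNAs with a bead clean-up and DNase; no digestion of linear RNA is named.

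Ends were matched to GENCODE M21 exons, with an offset of 0 bp. Counts were tested with edgeR 4.0.16 (R 4.3.3): TMM factors, filterByExpr (minimum count 5, minimum total 15), the quasi-likelihood F-test on all 9 libraries without a block, and Benjamini-Hochberg adjustment over all 8153 tested circRNAs at a threshold of 0.05. Standard errors are the log2 fold change divided by the root of F. DESeq2 1.42.0 was an alternative. Shares were compared by exact permutation tests.

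Named circles are the 12 most abundant, all that passed, the 5 hosts with most members, those at the span limits, at most 4 tested per gene list, and known single-exon circles. Hspg2, Myh9 and Lrp1 tied by number of members, so all are named. Some circles that this rule names are not reported here. Palm2, Rbm4, Zfa-ps and the rarer Rad52 circle were chosen after their values were seen. Members, lists and tests were chosen with earlier results of these data known. Alternatives were other scalings, filters, fits, span limits, a replicate block and leaving out each library; the setting without Nfix exon 2 was chosen after seeing the data.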

Additional observations from a re-analysis of the deposited data

How the results depend on the processing

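The number of short circles that passed at day 3 (6) was 10 with the replicate block, 10 with DESeq2, 1 in a fit of only the 2 groups compared, 1 at a span limit of 500 bp and 4 to 11 when single libraries were left out. At day 6 (7) it was 21 with DESeq2, 2 in a fit of 2 groups, 1 at a span limit of 500 bp and 7 to 12 when libraries were left out; the replicate block left it at 7. For day 6 against day 3 (0) it was 1 with no filter, 1 with DESeq2 and 0 to 1 when libraries were left out. Among left-out libraries, the counts against day 0 moved upward by over 1.5 times without day 3 replicate 2 (11 at day 3), day 6 replicate 1 (10 at day 3) and day 0 replicate 1 (12 at day 6). Same-numbered libraries of different days had correlations of -0.031 to 0.00968, and differently numbered ones -0.0196 to 0.0223. Counting noise lowers such correlations, so they do not settle whether libraries of the same number were grown together.

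The share of reads, day 3 minus day 0 (1.12 percentage points), was -0.13 at a span limit of 500 bp, 0.183 without the Nfix circle and 0.594 to 1.76 when libraries were left out. Day 6 minus day 0 (0.0937) was -0.303 at 500 bp, -0.539 without the Nfix circle and -0.489 to 0.524 when libraries were left out. The share of listed circRNAs, day 3 minus day 0 (-0.0566), was 0.0194 at 500 bp and -0.22 to 0.13 when libraries were left out. The single-exon share of reads was -1.29 for day 3 minus day 0 (4.01) and -4.12 for day 6 minus day 0 (3.61) at 500 bp, and 0.201 and -0.924 without Nfix. When libraries were left out it was 2.15 to 7.62 for day 3 minus day 0 (lowest without day 3 replicate 1, highest without day 3 replicate 2), 0.337 to 5.56 for day 6 minus day 0 (lowest without day 6 replicate 2) and -4.0 to 1.55 for day 6 minus day 3 (-0.397). Reads per listed circle turned to -0.599 at 500 bp. The causes were not tested.

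For the 7 named circles, 267 of the settings kept direction and call, 32 lost a call, 6 gained one and 10 turned direction, all 10 for day 6 against day 3. There the log2 fold change of Alg12 was 0.0243 with DESeq2 and -0.159 to 0.0825 when libraries were left out (0.0825 without day 3 replicate 1, 0.00331 without day 6 replicate 1). That of Mid1 was -0.21 to 0.56 when libraries were left out (-0.21 without day 3 replicate 2, -0.0166 without day 6 replicate 2), and that of Rad52 was 0.00532 with DESeq2. That of Samd4 was 0.0291 with DESeq2 and -0.298 to 0.0636 when libraries were left out (0.0593 and 0.0605 without day 3 replicates 1 and 3, 0.0636 without day 6 replicate 1). The 6 gained calls were all of Nfix for day 6 against day 3. Circles below the count filter (1446 of 1807) were not tested, so a change in them was not detectable at this depth.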
